A study of Homo sapiens with 12 samples.

Results

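The subject is hsa_circ_0007444, a circular RNA (circRNA) reported under the name circRHOBTB3 after the host gene RHOBTB3. The deposited table gives circBase-style identifiers and no host genes, so the host is background knowledge and was not checked in the data. The circRNA was chosen by its identifier, from its own counts in these libraries. It is 1 of 6384 circRNA rows in the table and 1 of the 1307 that had at least 2 counts in at least 3 libraries. Because the choice used the same contrasts that are described here, its values are a description and carry no p-value.

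A circRNA is a closed loop made when the spliceosome joins the end of an exon to the start of the same or an earlier exon. With no free ends it withstands exonucleases, so circRNAs can build up in cells whose host gene is only modestly transcribed. RHOBTB3 encodes a protein with BTB domains, which has been linked to vesicle transport and to cullin-based ubiquitin ligases. IGF2BP2 is a cytoplasmic RNA-binding protein with RRM and KH domains known to stabilise target mRNAs and to promote their translation. BET proteins read acetylated histones through their bromodomains, and BET inhibitors lower transcription of MYC in many cancer cells. The question put by the study's design was which circRNAs bind less to IGF2BP2 once cells have become resistant to such an inhibitor.

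All libraries came from MDA-MB-231, an established triple-negative breast cancer cell line. The Sens groups were wild-type parental cells with no treatment, and the Res groups were cells with established BET inhibitor (BETi) resistance that stayed under the inhibitor until harvest. The inhibitor is not named in the labels, and neither is whether the Res cells are 1 clone or a pool. Resistance and ongoing drug exposure therefore cannot be told apart. Lysates of each line were incubated with 5 μg of an anti-IGF2BP2 monoclonal antibody (RIP) or 5 μg of normal rabbit IgG and captured on Protein A/G agarose for 4 hours. There were 3 libraries in each of the 4 groups, Sens IgG, Sens RIP, Res IgG and Res RIP. The labels do not say that the 3 libraries of a group came from separate cultures, so the spread between them may be technical.

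The table is shallow. A library held between 1960 and 8662 circRNA counts, and counts of the ERCC spike-in transcripts took between 7.51% and 97.9% of all counts. The labels' protocols state that the spike-in went into RNA of equal amount after purification. If so, a value per ERCC count is per amount of RNA put in and not per amount precipitated. ERCC counts were between 56042 and 133928 in the IgG libraries and between 448 and 764 in the RIP libraries. The reason for this difference was not tested. All 12 replicate pairs within groups differed by more than counting noise, with chi-square per degree of freedom between 1.29 and 1.84 over circRNAs with at least 5 counts in the pair, and each library was counted separately.

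With IgG in sensitive cells (Sens IgG), hsa_circ_0007444 had 1 count in replicate 1, 0 in replicate 2 and 0 in replicate 3. With the IGF2BP2 antibody (Sens RIP) the same cells gave 49, 27 and 29 counts in replicates 1, 2 and 3. In resistant cells the IgG libraries had 18, 22 and 15 counts and the RIP libraries 24, 64 and 20. The circRNA was thus nearly missing from the IgG control of the sensitive cells, while the IgG control of the resistant cells held it in every library. The raw counts of Res RIP and Res IgG overlapped, since 2 of the 3 Res RIP libraries lay close to the highest Res IgG library. Summed over a group, the counts were 1, 105, 55 and 108, in the order Sens IgG, Sens RIP, Res IgG and Res RIP. The exact 95% Poisson intervals of these sums were 0.0253 to 5.57 counts, 85.9 to 127.1, 41.4 to 71.6 and 88.6 to 130.4. For a library with 0 counts, a one-sided 95% limit of 3 counts was used as the floor, somewhat below the upper end of the exact two-sided interval (3.69 counts). It is 0.153% of circRNA counts in Sens IgG replicate 2 and 0.105% in replicate 3. All such intervals and limits cover the counting error of reads only and leave out the spread between libraries. No molecular identifiers are described and 1 molecule can give several reads, so they may be too narrow even for counting molecules.

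**Figure D1:**
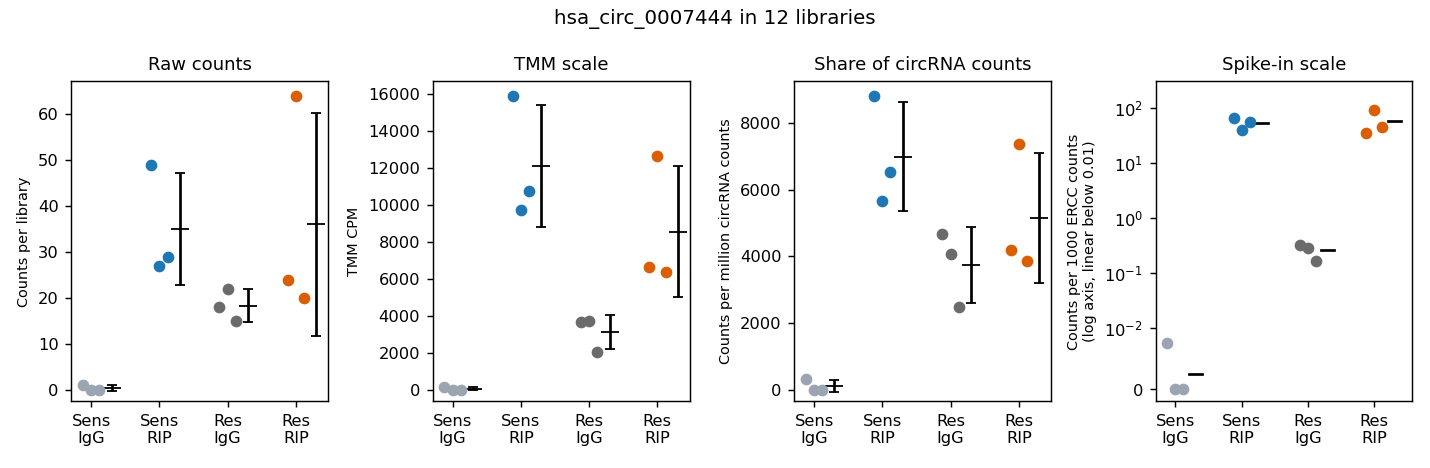
Level of hsa_circ_0007444 in each of the 12 libraries on 4 scales: raw counts, CPM (counts per 1000000) with TMM library sizes, counts per 1000000 circRNA counts, and counts per 1000 ERCC counts on a log axis that is linear below 0.01. Points are libraries, horizontal bars are group means, and vertical bars, drawn on the first 3 scales, are the SD of 3 libraries. The 3 Sens IgG libraries sit at 0 or 1 count, and the 3 Res IgG libraries lie between 15 and 22 counts.

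Libraries were first scaled by TMM, which divides each circRNA count by a library size adjusted so that most circRNAs have similar levels across libraries. The values are counts per 1000000 (CPM) of that adjusted size. The adjustment factors were between 2.25 and 2.55 in Sens IgG, between 1.10 and 1.28 in Res IgG and between 0.554 and 0.633 in the RIP groups, so TMM raised RIP values and lowered IgG values relative to plain totals. The Sens IgG libraries were at 143.7, 0 and 0 CPM, a mean of 47.9 ± 83.0 (SD, n = 3). The Sens RIP libraries were at 15918, 9731 and 10758 CPM, a mean of 12136 ± 3316 (SD, n = 3). The RIP and IgG libraries were far apart here, with the lowest RIP library well above the only IgG library that held the circRNA. The Res IgG libraries were at 3648, 3695 and 2036 CPM, a mean of 3127 ± 945 (SD, n = 3). The Res RIP libraries were at 6623, 12683 and 6392 CPM, a mean of 8566 ± 3567 (SD, n = 3). From highest to lowest mean, the order was Sens RIP, Res RIP, Res IgG and Sens IgG. The neighbours Sens RIP and Res RIP overlapped in range, whereas Res RIP and Res IgG, and Res IgG and Sens IgG, did not.

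In the sensitive cells the circRNA was counted almost only with the IGF2BP2 antibody. The summed counts, each divided by summed TMM library sizes, gave a RIP level 225.6 times the IgG level, with an exact 95% interval of 39.6 to 8994. The width of the interval comes from the single Sens IgG count. Each of the 9 pairings of a Sens RIP with a Sens IgG library had the higher value in RIP, and this complete separation in favour of RIP was shared by 24.4% of the 1307 circRNAs. With library circRNA totals as the only scaling the ratio was 55.4 (9.72 to 2208), and per ERCC count it was 18852 (3311 to 751627). Complete separation in favour of RIP was shared by 22% of circRNAs on circRNA totals and 29.5% per ERCC count. With spike-in totals the fitted log2 ratio was 13.26, against a median of 7.63 over the 1307 circRNAs. The direction was the same on each of these scales, while the size depended strongly on the scale.

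In the resistant cells the circRNA was recovered with both antibodies. The Res RIP level was 3.04 times the Res IgG level on the TMM scale, with an exact interval of 2.18 to 4.28. All 9 pairings were higher in RIP, as were those of 27.2% of the 1307 circRNAs. On circRNA totals alone the ratio was 1.54 (1.10 to 2.16), and the libraries overlapped: the Res IgG libraries were at 4663, 4077 and 2485 RPM (reads per 1000000 circRNA counts) and the Res RIP libraries at 4191, 7389 and 3862. On that scale 6 of the 9 pairings were higher in RIP. Per ERCC count the ratio was 238.6 (170.9 to 336.5), again with no overlap, as for 39.3% of the 1307 circRNAs. With spike-in totals its fitted log2 ratio was 7.83, against a median of 6.01 over all tested circRNAs, so much of this size was shared. Res RIP replicate 2 carried much of the mean. Without it the fitted log2 ratio on the TMM scale was 0.92, against 1.53 ± 0.287 (SE, n = 3 libraries per group) with all libraries.

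In the IGF2BP2 pulldown itself, the lines overlapped. From summed counts, the Res RIP level was 0.745 times the Sens RIP level on the TMM scale (exact interval 0.564 to 0.984). The fitted log2 difference, a separate estimate, was -0.46 ± 0.262 (SE, n = 3 libraries per group). The 2 groups overlapped, with the Res library higher in 2 of 9 pairings. The counting interval lies just below 1, but it leaves out the spread between libraries, and the SD between Sens RIP libraries alone was 3316 CPM around 12136. For comparison, 8.11% of the 1307 circRNAs were higher in every Res RIP library and 4.51% were lower in every one, and hsa_circ_0007444 was in neither set. On circRNA totals the ratio was 0.777 (0.588 to 1.03).

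The sign of the pulldown difference depended on the scale and on single libraries. Per 1000 ERCC counts, the Sens RIP libraries were at 64.1, 39.9 and 54.8 and the Res RIP libraries at 34.3, 91.0 and 44.6, means of 53.0 ± 12.2 and 56.7 ± 30.2 (SD, n = 3 each). The ratio of sums was then 1.09 (0.829 to 1.45) and Res was higher in 4 of 9 pairings. On the TMM scale, the fitted log2 difference was 0.14 without Sens RIP replicate 1, 0.10 without Res RIP replicate 3 and 0.01 without Res RIP replicate 1. It was -0.69 without Res RIP replicate 2. A direction for the pulldown could not be assigned to hsa_circ_0007444 at this depth and replicate spread.

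The line difference in the IgG controls was large on every scale. Per 1000 ERCC counts, for example, the Sens IgG libraries were at 0.00747, 0 and 0 and the Res IgG libraries at 0.321, 0.283 and 0.165. The summed Res IgG level was 55.3 times the Sens IgG level on the TMM scale, with an exact interval of 9.53 to 2225. On circRNA totals it was 28.0 times (4.83 to 1127), and per ERCC count 86.4 times (14.9 to 3475). Every Res IgG library was above every Sens IgG library on these scales. Such complete separation toward Res was common, however, at 45.8% of the 1307 circRNAs on the TMM scale, and the median circRNA had a fitted log2 difference of 1.68. A circRNA could pass the filter through the 3 libraries of 1 group alone, which favours separation toward that group. The shares given for each comparison therefore depend on the filter. The IgG median was 0 without any 1 of the Res IgG libraries, where hsa_circ_0007444 was at 5.21, 5.16 and 5.50. With only the IgG libraries fitted the median was 4.80 over 804 circRNAs, and hsa_circ_0007444 was at 5.37. How far it stood above the median thus depended on the circRNAs admitted. In the fit over all libraries its value was 5.25, above that of 89.3% of the 1307 circRNAs, a share that also depends on the filter. Total circRNA counts were themselves higher in Res IgG, with 3860, 5396 and 6036 counts against 2989, 1960 and 2845 in Sens IgG. The part of that depth difference in the result was not tested beyond the scalings given.

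The ratio of RIP to IgG was thus smaller in Res than in Sens, and most of that difference came from the IgG side. From summed counts on the TMM scale, the enrichment of 225.6 in Sens and 3.04 in Res differed by -6.21 on the log2 scale. The IgG term made up 5.79 and the RIP term -0.42, so that 93.2% of the difference was in IgG. Because Sens IgG rests on 1 count, the same sums were repeated with Sens IgG at 3 counts and at 5.57 counts, the upper end of its interval. The log2 enrichment difference was then -4.63 and -3.74, with 90.8% and 88.7% of it in IgG. With ERCC scaling it was -6.30, of which the IgG term was 6.43 and the RIP term 0.13, so the RIP term ran the other way.

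**Figure D2:**
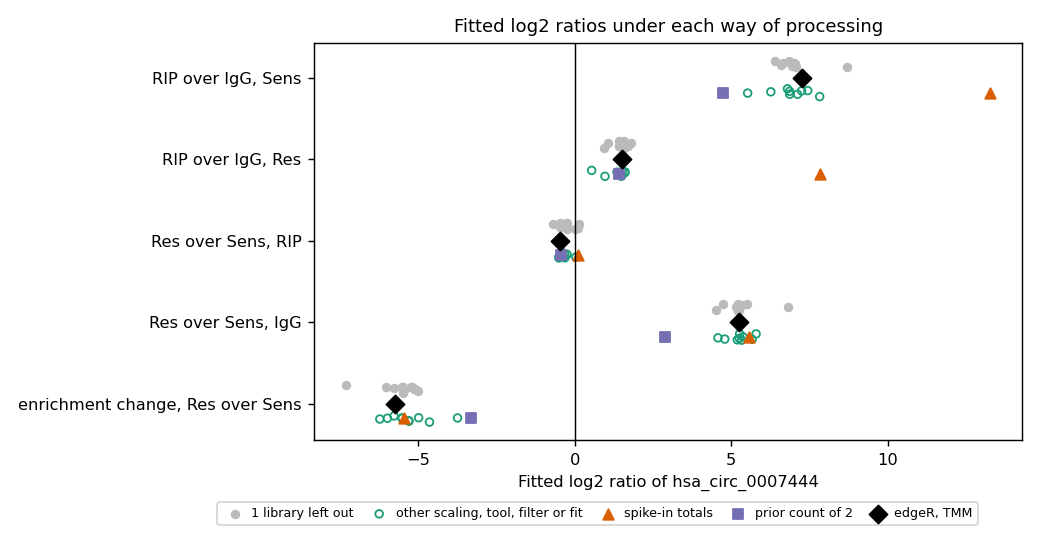
Fitted log2 ratios of hsa_circ_0007444 for RIP over IgG in each line, Res over Sens in each antibody, and the enrichment difference between lines, with 1 symbol per way of processing. Black diamonds are the edgeR fit with TMM scaling, gray points leave out 1 library each, and the other symbols are other scalings, tools, filters or prior counts. The RIP comparison between lines lies on both sides of 0, while the IgG comparison lies between 2.87 and 6.81.

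Across all circRNAs tested on the TMM scale, hsa_circ_0007444 stood near the top in Sens enrichment and nearer the middle in Res enrichment. Its fitted log2 Sens enrichment was 7.24, above 98.2% of the 1307 circRNAs, whose median was 2.44. Many tested circRNAs had few or no counts in the compared groups, so the medians depend on which circRNAs pass the filter. With only the Sens libraries fitted, the median was -0.44 over 463 circRNAs, and hsa_circ_0007444 was at 6.86. Its fitted log2 Res enrichment was 1.53, above 61.3% of circRNAs, whose median was 0. Without Res IgG replicates 1, 2 and 3 in turn, that median was 1.795, 1.899 and 1.948. hsa_circ_0007444 was then at 1.535, 1.569 and 1.08, below the median, so its side of the median depended on the circRNAs admitted. The fitted enrichment difference between lines was -5.72, against a median of -1.32, and 9.11% of circRNAs had a lower one. That median was 0.08, 0.13 and 0.17 without Res IgG replicates 1, 2 and 3 in turn. With spike-in scaling the difference was -5.44, against a median of -0.50, and 8.65% had a lower one. Of the 119 circRNAs with a lower fitted enrichment difference than hsa_circ_0007444, 115 had no count in Sens IgG, and so did 21 of the 22 with a higher Sens enrichment and 137 of the 139 with a higher IgG difference. A fitted value for such a circRNA depends on the small count that the fit adds, and this also holds for hsa_circ_0007444 with its single Sens IgG count.

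**Figure D3:**
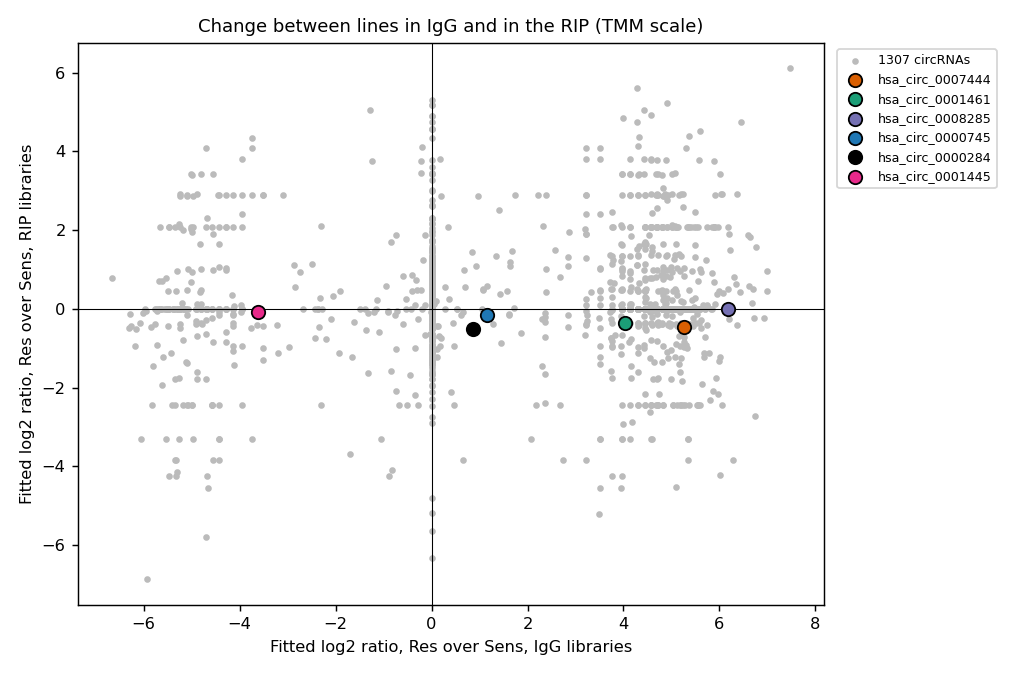
Fitted log2 difference between lines (Res over Sens) in IgG, on the horizontal axis, and in RIP, on the vertical axis, for the 1307 tested circRNAs, with hsa_circ_0007444 and the other named circRNAs marked. hsa_circ_0007444 lies at 5.25 in IgG and -0.46 in RIP, far from 0 along the IgG axis and close to 0 along the RIP axis.

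The submitters' own measure, which the series design describes, subtracts IgG from RIP in RPM and then subtracts Sens from Res. With circRNA counts as the denominator, hsa_circ_0007444 had 6885 RPM of enrichment in Sens and 1405 RPM in Res, a delta enrichment of -5480.1 ± 1608 RPM (SE, n = 3 libraries per group). It ranked 5 from the lowest among the 1307 circRNAs, of which 765 were below 0. The IgG groups contributed 66.3% of this delta, as IgG was 3630 ± 660.2 RPM higher in Res, and RIP was lower by 1850 ± 1466 RPM (SE). On this denominator, a circRNA with this delta would be read under the design's rule as one that bound IGF2BP2 less in Res. The larger term here was the IgG control. Per the labels' protocols the authors scaled to the spike-in with RUVSeq, which was not run here, so their own delta may differ.

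The denominator set both the size and the sign of this measure. With all counts of the table as the denominator, ERCC included, the delta was -1707 ± 1347 RPM (SE), and 13.9% of it came from IgG. The IgG libraries held between 56042 and 133928 ERCC counts and the RIP libraries between 448 and 764, so this denominator lowers IgG values far more than RIP values. Per 1000 ERCC counts the delta was 3.44 ± 18.8 (SE), with an enrichment of 53.0 in Sens and 56.4 in Res, so its sign was turned and its size lay within its error. Its rank from the lowest was then 1061 of 1307, with 495 circRNAs below 0, against 8 over all counts and 7 with TMM library sizes. With TMM library sizes it was -6648 ± 2865 CPM (SE), 46.3% of it from IgG. The share of the log2 enrichment difference that lay in IgG also moved with the scale, but less, from 93.0% on circRNA totals to 102.1% with ERCC scaling, where the RIP term had the opposite sign.

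hsa_circ_0007444 was among the circRNAs with the most counts in 3 of the 4 groups. By raw count it ranked 11, 15 and 11 in the Sens RIP libraries, among 1908, 1681 and 1591 circRNAs detected. In Res RIP it ranked 27, 12 and 27 among 2064, 2681 and 1847. In Res IgG it ranked 12, 15 and 52 among 1039, 1109 and 1138. In Sens IgG replicate 1, by contrast, its single count placed it at rank 387 of 441, tied with others. These ranks are of counts not divided by length, so they order rows by reads and not by molecules.

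The replicates of a group were not equal. From the share of circRNA counts over the whole group, Res RIP replicates 1, 2 and 3 would have held 31.6, 47.8 and 28.6 counts, against 24, 64 and 20 counted. For Sens RIP the values were 39.5, 33.9 and 31.6, against 49, 27 and 29. For Res IgG they were 13.9, 19.4 and 21.7, against 18, 22 and 15. The library that stood furthest above its group was therefore Res RIP replicate 2, which was also the deepest, with 8662 circRNA counts.

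The IgG libraries had an uneven count distribution that bears on the single Sens IgG count. Among the 475 circRNAs detected in Sens IgG, the most frequent summed count was 7, and 29 circRNAs had a sum of 1. Among the 1243 detected in Res IgG the most frequent sum was also 7, and 59 had a sum of 1. In the RIP groups the most frequent sum was 1, which 52.7% of detected circRNAs had in Sens and 45.7% in Res. The sum of 1 for hsa_circ_0007444 in Sens IgG was thus below the usual sum of a detected circRNA there, and its sum of 55 in Res IgG was 7.86 times the usual one. What part this distribution has in the IgG difference was not tested.

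**Figure D4:**
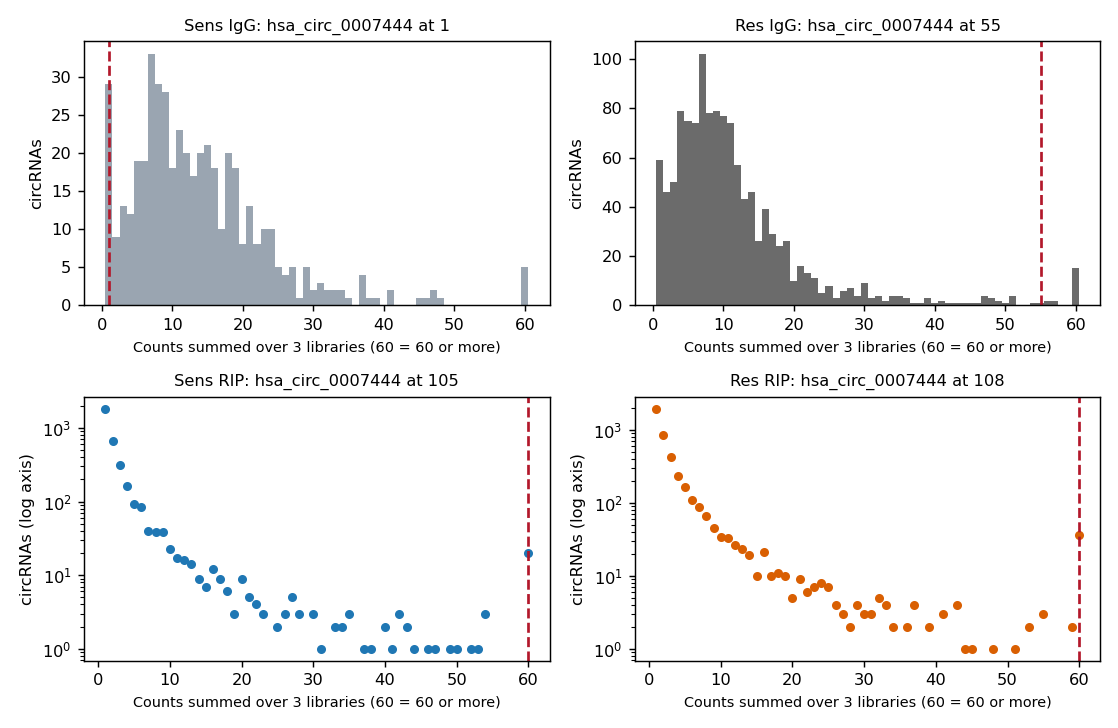
Number of circRNAs by their counts summed over the 3 libraries of a group, in bars for the IgG groups and in points on a log axis for the RIP groups, with sums of 60 or more placed at 60. The dashed line is hsa_circ_0007444, at 1 for Sens and 55 for Res in the IgG panels, and at sums of 105 for Sens and 108 for Res in the RIP panels, drawn there at 60. Both IgG groups peak at a sum of 7, and both RIP groups at a sum of 1.

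The pattern of hsa_circ_0007444 over the 12 libraries was set beside all tested circRNAs, on log2 TMM CPM with 2 counts added. By Pearson correlation the nearest were hsa_circ_0001461 (r = 0.982) and hsa_circ_0000745 (r = 0.966). By Euclidean distance, which also takes the level into account, they were hsa_circ_0001461 (1.63) and hsa_circ_0008285 (2.62). The same circRNAs were nearest with spike-in scaling. The 12 libraries fall into 4 groups with shared antibodies and depths, so these values describe likeness and are given without a p-value.

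hsa_circ_0001461 had IgG counts of 1, 1 and 1 for Sens and 12, 22 and 22 for Res. Its RIP counts were 32, 24 and 17 for Sens and 17, 39 and 23 for Res. It repeated the pattern of hsa_circ_0007444 with somewhat fewer RIP counts: a fitted log2 difference between lines of 4.02 in IgG and -0.36 in RIP, and an enrichment difference of -4.38. hsa_circ_0008285, known as circCDYL, had 1, 0 and 0 counts in Sens IgG and 22, 46 and 38 in Res IgG. Its RIP counts were 18, 53 and 44 in Sens and 35, 94 and 37 in Res, with fitted log2 differences of 6.17 in IgG and 0.00 in RIP. hsa_circ_0000745 correlated with hsa_circ_0007444 but was plainly present in Sens IgG, at 31, 21 and 22 counts. Its fitted enrichment difference was -1.32, equal to 2 decimals to the median of all circRNAs.

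**Figure D5:**
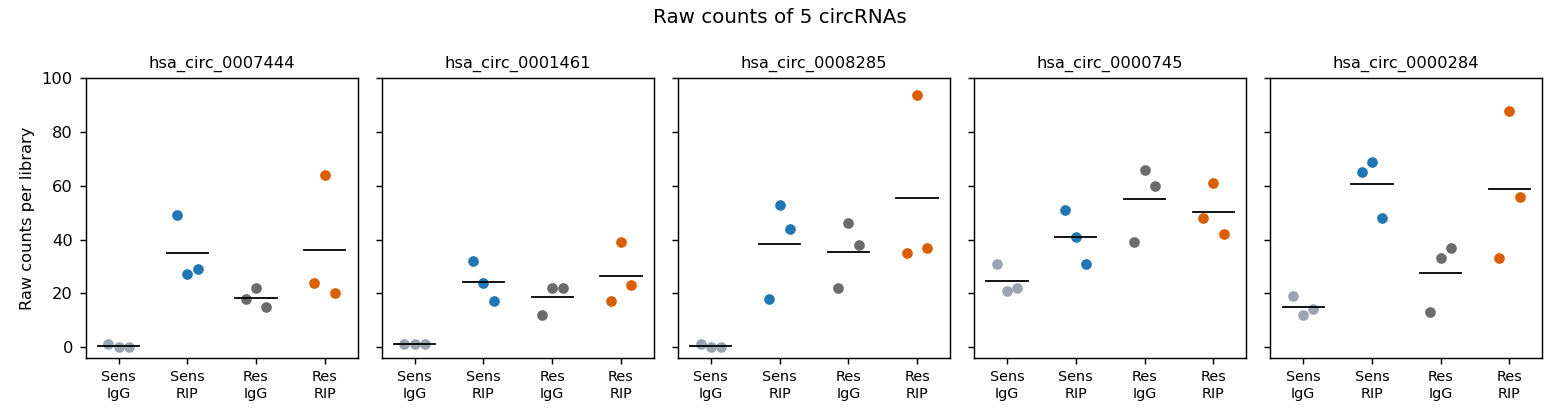
Raw counts in each of the 12 libraries for hsa_circ_0007444 and 4 other named circRNAs, with horizontal bars at the group means, grouped by line and antibody. hsa_circ_0007444, hsa_circ_0001461 and hsa_circ_0008285 have 0 or 1 count in every Sens IgG library and at least 12 in every Res IgG library, while hsa_circ_0000745 and hsa_circ_0000284 have at least 12 in every Sens IgG library.

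Other much-studied circRNAs were set beside it for orientation. circHIPK3 (hsa_circ_0000284) had 19, 12 and 14 counts in Sens IgG and 13, 33 and 37 in Res IgG, and its fitted enrichment difference was -1.39 ± 0.371 (SE). Its RIP counts were 65, 69 and 48 in Sens and 33, 88 and 56 in Res, a fitted log2 difference of -0.52. This RIP difference was close to the -0.46 of hsa_circ_0007444, while the IgG differences were 0.87 and 5.25. circSMARCA5 (hsa_circ_0001445) had 8, 3 and 7 counts in Sens IgG and at most 3 in any other library. It did not share the IgG pattern, and its RIP counts were too few to compare between lines. circZNF609 was not analysed here.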

How the data were processed

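The deposited table holds the authors' raw counts per circRNA and per ERCC transcript for 12 libraries, as whole numbers. The build is GRCh37 in the submitters' processing notes. Aligner, caller and counting rule are not given in the sources used here. It is thus unknown whether only back-splice reads were counted. Per the labels' protocols, the authors scaled to the spike-in with RUVSeq, a scaling that is absent from the deposited counts.

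Groups came from the sample titles. ERCC rows were left out of library sizes. The 1307 circRNAs that reached 2 counts in 3 or more libraries were fitted with edgeR 4.0.16 (TMM, quasi-likelihood, R 4.3.3), with 1 coefficient per group over all 12 libraries. The fit was first tested on simulated data, with changes planted only in circRNAs of higher mean count. That test does not cover a group with almost no counts, such as Sens IgG for hsa_circ_0007444. Fitted log2 values are edgeR's, with a prior count of 0.125. The SE of a fitted value was derived from the quasi-likelihood F statistic and the log2 value without the prior count. Ratios of summed counts have exact 95% intervals. Alternatives were other scalings, filters and prior counts, DESeq2 1.42.0, limma-voom (limma 3.58.1), a replicate block and leaving out each library. RUVSeq was not run, and spike-in totals stood in for it. The submitters' delta enrichment was computed from RPM.

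The circRNA, the other named circRNAs and the alternatives were chosen with earlier results of these data known. The other circRNAs named were the nearest 2 by correlation, the nearest 2 by distance, and 4 well-known ones by circBase identifier, of which 1 was not analysed here.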

Additional observations from a re-analysis of the deposited data

Results flagged for a closer look

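The ratio of RIP to IgG for hsa_circ_0007444 differed between the lines, with a fitted log2 enrichment difference, Res over Sens, of -5.72. The circRNA was chosen on this contrast, so the difference is given without a p-value. It rests on 1 count over the 3 Sens IgG libraries against 55 over the 3 Res IgG libraries.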

How the results depend on the processing

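The IgG difference between lines and the enrichment difference kept their direction under every alternative run, but their sizes rest on 1 Sens IgG count. With a prior count of 2 the log2 Sens enrichment was 4.73, the IgG difference 2.87 and the enrichment difference -3.32. In alternatives chosen after seeing the data, setting Sens IgG at 3 counts or at the upper end of its interval gave enrichment differences of -4.63 and -3.74. With circRNA column totals the Sens enrichment was 5.52, the Res enrichment 0.54 and the IgG difference 4.57. With spike-in totals the Sens and Res enrichments were 13.26 and 7.83. The Sens enrichment was 6.26 with no scaling, 6.79 with limma-voom and 7.82 from summed counts, which put the IgG difference at 5.79. Leaving out each library in turn gave 6.40 to 8.69 for the Sens enrichment, 0.92 to 1.81 for the Res enrichment, 4.52 to 6.81 for the IgG difference and -7.28 to -4.99 for the enrichment difference. The extremes of 8.69, 6.81 and -7.28 were all without Sens IgG replicate 1, which left no Sens IgG count. The RIP difference ran from -0.69 to 0.14 without single libraries, and was 0.11 with spike-in totals and 0.04 with no scaling. The delta enrichment was -1706.8 RPM over all counts and 3.44 per 1000 ERCC counts, the reverse sign, and -6601 to -4573 RPM without single libraries. Beyond the construction of each alternative, the cause was not tested.

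The labels do not say that same-numbered libraries pair, so the numbers were not taken as pairs. Deviations of same-numbered libraries from their group means had median correlations of 0.0076, -0.010 and -0.012. At such low counts these values cannot exclude pairing. With a replicate block the Sens, Res, RIP, IgG and enrichment values were 7.24, 1.48, -0.50, 5.26 and -5.76.

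With spike-in totals, 165 circRNAs rather than 106 were higher in every Res RIP library, and 30 rather than 59 were lower. Sens IgG held at most 2989 circRNA counts per library, which sets the precision of every ratio against it.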

Other observations

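The IgG pattern of hsa_circ_0007444 was compared with other circRNAs of high counts, in sets defined after its values were seen. Of the 12 other circRNAs with at least as many summed Sens RIP counts, 3 had at most 1 count over the Sens IgG libraries, and 4 had at least 55 over the Res IgG libraries. Only hsa_circ_0008285 (circCDYL) had both, as hsa_circ_0007444 did. The median summed count of the 12 was 24.5 in Sens IgG (0 to 1180) and 37.5 in Res IgG (2 to 165). Of the 19 other circRNAs with at least as many Res IgG counts as hsa_circ_0007444, 6 had at most 1 Sens IgG count, 4 of them none, and their median was 18 (0 to 99). hsa_circ_0001461, the nearest in pattern, had 3 Sens IgG and 56 Res IgG counts and so was not among the 6. Both limits are the values of hsa_circ_0007444 itself, and these counts are a description of the sets only.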
